A study of Mus musculus with 6 samples.

Results

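Conventional natural killer (NK) cells were taken from single-cell RNA sequencing of liver non-parenchymal cells, the cells of the liver other than hepatocytes. They were chosen by a gate on unique molecular identifiers (UMIs), the counts of distinct RNA molecules in a cell: at least 2 UMIs of Ncr1 and Klrb1c together, at most 1 of Cd3d, Cd3e and Cd3g, at least 2 of Gzma and Prf1, and 0 of Cxcr6 and Itga1. The gate held 162 of the 27544 cells with under 5000 genes and under 5% mitochondrial UMIs, out of 33168 deposited barcodes. These 9 genes were selected on, so their levels describe the gate and were not tested.

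The cells came from male C57BL/6J mice, 8 weeks old at purchase, in which nonalcoholic steatohepatitis (NASH) was produced by a high-fat diet for 24 weeks. In the last 8 weeks, 1 group received vehicle (DMSO) and the other was gavaged daily with ginkgetin, a biflavone found in Ginkgo biloba leaves, at a dose of 10 mg/kg. Both groups carried the diet, and no lean animals were used here. There were 3 libraries per group, labelled replicates 1 to 3, and nothing in the labels says whether a library was 1 mouse or a pool.

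NK cells are innate lymphocytes that kill stressed, infected or transformed cells without rearranged antigen receptors. They release perforin (Prf1) and granzymes and secrete interferon gamma and chemokines, and the balance between activating and inhibitory receptors sets their response. In the mouse many of these receptors are lectins of the Ly49 family, encoded by the Klra genes, of which each cell uses some and not others. The liver also holds type 1 innate lymphoid cells (ILC1), which share Ncr1 and Klrb1c with NK cells, reside in the tissue, and carry Cxcr6 and Itga1. Eomes is the transcription factor that usually separates the 2 lineages.

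The vehicle libraries held 25, 20 and 14 NK cells and the ginkgetin libraries 14, 32 and 57, so ginkgetin replicate 3 gave more than any other library. The median depth of an NK cell was 3213, 2846 and 5335 UMIs in the vehicle libraries and 2327.5, 2706.5 and 4142 in the ginkgetin libraries, and replicate 3 was the deepest of both groups. Summed over its NK cells, a library had between 34710 and 260002 UMIs, and 1 UMI was worth between 3.85 and 28.8 CPM, the UMIs of a gene scaled to a common library total of 1e6. None of the NK barcodes occurred in more than 1 library (0 shared), against 266 over all cells. All libraries listed the same 19349 symbols, but 946 had UMIs only in replicates 1 and 2 of both groups and 2253 only in replicate 3. These were treated as missing and not tested. The labels do not say whether replicate 3 was counted with another annotation.

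Markers that the gate did not use were read in the same cells. Of the 162 cells, 56.2% had a UMI of Eomes and 59.3% of Klra8, which encodes the activating receptor Ly49H, while 98.8% had Nkg7, a granule protein of killer cells, and 99.4% Tyrobp, the adaptor of many NK receptors. Among the genes of the gate, 84.0% had Ncr1, 93.2% Klrb1c and 98.8% Gzma. Nkg7 and Tyrobp do not set these cells apart from the ILC1-like cells described below, of which 99.5% and 94.6% had them, while 3.26% of those had Eomes and 0.543% Klra8. The T cell genes Cd4, Cd8a and Cd8b1 had 0 UMIs in all of them.

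Prf1, which makes the pores through which granzymes enter a target, was uneven between the library sets. Its level in the vehicle libraries was 84.4, 101 and 595 CPM, and in the ginkgetin libraries 0, 49.9 and 1377 CPM. Replicate 3 was high in both groups and replicates 1 and 2 were low in both, so the gate rested almost wholly on Gzma in replicates 1 and 2. The level of Gzma, granzyme A, was 10241, 9309 and 7080.4 CPM with vehicle and 7375, 6861 and 10299.9 CPM with ginkgetin, and the groups overlapped.

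Cells just outside the gate were counted for each condition. With the other conditions met, 90 cells had 0 UMIs of Gzma and Prf1 and 14 had 1, whereas in the gate only 1 cell had exactly 2. Of those 90 cells 7.78% had Eomes and 2.22% Klra8, while 54.4% had Il7r and 53.3% Tmem176b, which are found in ILC1. Markers that NK cells and ILC1 share were common in them, with Nkg7 in 97.8%, Tyrobp in 93.3%, Klrk1 in 92.2% and Klrd1 in 78.9%. In addition, 19 cells fell out with 1 UMI of Ncr1 and Klrb1c, 10 with 1 UMI of Cxcr6 and Itga1, and 0 with 2 UMIs of the Cd3 genes. For these conditions only the nearest value was counted, so the conditions are not ranked. Without the condition on Cxcr6 and Itga1 the gate held 32, 27 and 36 cells with vehicle and 17, 32 and 89 with ginkgetin. Inside the gate, 25 cells had exactly 2 UMIs of Ncr1 and Klrb1c.

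RNA of other cell types was present at low levels. Of the NK cells, 24.1% had a UMI of Lyz2, 14.8% of Alb and 6.79% of Kdr, markers of myeloid cells, hepatocytes and endothelial cells. The summed level of 10 hepatocyte markers was between 327 and 1048 CPM in the vehicle libraries and between 57.6 and 858 CPM in the ginkgetin libraries, and that of 10 macrophage markers was between 241 and 541 CPM and between 86.4 and 578 CPM. None of the members of those lists stood at 0 over all NK cells (0 of 10 and 0 of 10). The summed level of 10 endothelial markers was 158, 152 and 99.1 CPM with vehicle and 259, 1187 and 358 CPM with ginkgetin, so the groups did not overlap, and 0 of 10 members stood at 0. B cell markers summed to between 0 and 185 CPM, neutrophil markers to between 0 and 140 CPM, stellate cell markers to between 0 and 69.8 CPM and dendritic cell markers to between 288 and 1027 CPM. T cell markers summed to at most 19.9 CPM in replicates 1 and 2 and to 722 and 673 CPM in replicate 3 of vehicle and ginkgetin. Only those 2 libraries had UMIs of the T cell receptor genes Trac, Trbc1 and Trbc2 in any cell. Ms4a1 of B cells, Cxcr2, Camp, Ngp and Ltf of neutrophils, Lrat, Col1a1 and Des of stellate cells, and Xcr1, Clec9a, Flt3, Cd209a and Ccr9 of dendritic cells were at 0 in all NK cells. Doublets were not called here, and 12, 12, 13, 0, 21 and 19 NK cells of the 6 libraries, vehicle first, had 3 or more UMIs of other-lineage markers. The part of this RNA in the results below was not tested between treatments, since too few cells were left without it.

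Ginkgetin-treated mice were compared with vehicle-treated mice first in the number of NK cells. NK cells made up 0.415%, 0.600% and 0.338% of the kept cells of the vehicle libraries and 0.401%, 0.463% and 1.56% of those of the ginkgetin libraries. Only ginkgetin replicate 3 stood above the others, and the rest of the libraries overlapped. The means were 0.451% ± 0.134 and 0.809% ± 0.655 (SD, n = 3 each), with p = 0.6 in a two-sided exact permutation test, in which 3 libraries against 3 cannot go below 0.1. Without ginkgetin replicate 3 the difference was -0.019 percentage points, and among replicates 1 and 2 it was -0.076. Among lymphoid cells, defined as the NK gate, the ILC1-like gate and cells with 2 or more Cd3 UMIs, NK cells made up 1.79%, 2.86% and 1.48% with vehicle and 1.12%, 2.999% and 6.48% with ginkgetin. The means were 2.04% ± 0.725 and 3.53% ± 2.72 (SD, n = 3 each), with p = 0.6 in the same exact test. Among replicates 1 and 2 the difference was -0.268 points, and without ginkgetin replicate 3 it was 0.016. With cells of 250 to 5000 UMIs the means were 1.97% ± 0.921 and 7.01% ± 8.30, a difference of 5.04 points in place of 1.49 (p = 0.4, exact permutation test).

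**Figure D1:**
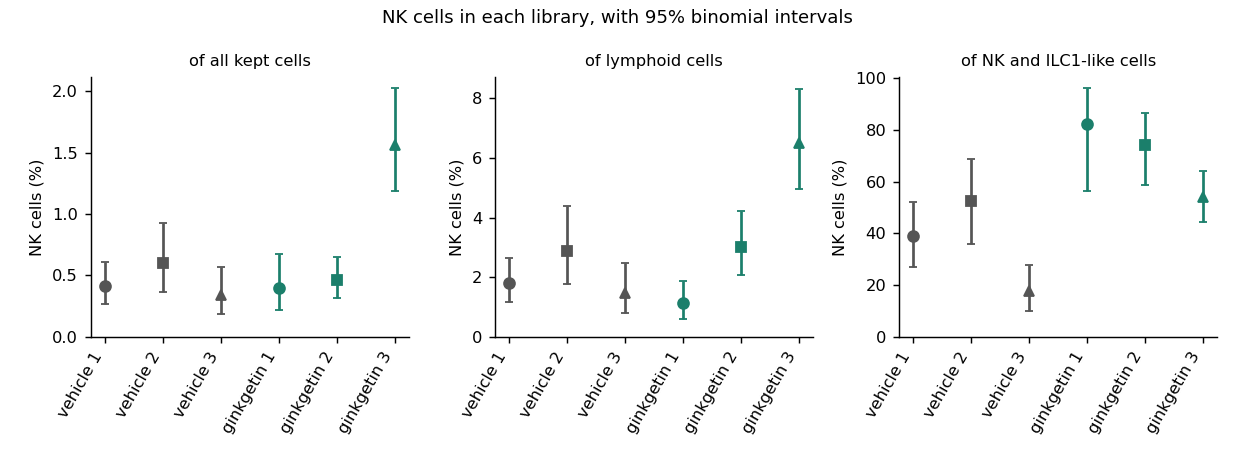
NK cells as a percentage of all kept cells, of lymphoid cells and of NK plus ILC1-like cells in each library (points; grey, vehicle; green, ginkgetin; circle, square and triangle, replicates 1 to 3), with 95% Clopper-Pearson intervals that cover counting error only. Ginkgetin replicate 3 stands apart at 1.56% of kept cells, and in the right panel the vehicle libraries lie at or below 52.6% and the ginkgetin libraries at or above 54.3%.

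NK cells were also set against ILC1-like cells. ILC1-like cells were gated on the same Ncr1, Klrb1c and Cd3 conditions with at least 2 UMIs of Cxcr6 and Itga1, and there were 39, 18 and 65 of them in the vehicle libraries and 3, 11 and 48 in the ginkgetin libraries. NK cells made up 39.1%, 52.6% and 17.7% of both gates together with vehicle and 82.4%, 74.4% and 54.3% with ginkgetin. The groups did not overlap, and the means of 36.5% ± 17.6 and 70.4% ± 14.5 (SD, n = 3 each) gave p = 0.1 in the two-sided exact permutation test, the smallest that 3 against 3 allows. The measure was chosen after the cell numbers had been seen. When every cell was thinned to 1000 UMIs before gating, the difference was -1.02 points (p = 0.9, exact permutation test) in place of 33.9, and the ILC1-like gate then held 0 to 6 cells per library. Without the condition on Gzma and Prf1, which the ILC1-like gate does not have, the groups overlapped, with means of 50.7% and 76.2% and p = 0.3 in the exact permutation test.

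Markers of maturation were compared within NK cells after each cell was thinned to 1000 UMIs, and all 162 cells were deep enough. Mouse NK cells lose Cd27, a receptor of the tumour necrosis factor family, and gain the integrin Itgam as they mature. Cd27 was found in 12.0%, 15.0% and 14.3% of the NK cells of the vehicle libraries and in 0%, 6.25% and 7.02% of those of the ginkgetin libraries. The groups did not overlap, and p was 0.1 in the exact permutation test, or 0.5 after adjustment over the 10 markers tested. The separation held at 1000 UMIs only: at 2000 UMIs the groups overlapped with a difference of -5.56 points in place of -9.34 (exact permutation p = 0.7), and without thinning they overlapped too (p = 0.2, exact permutation test). Cd27 was also found in between 0.409% and 3.29% of B cells of the same libraries, thinned in the same way, and the 0 of 14 cells of ginkgetin replicate 1 allows a share of up to 23.2% (exact 95% bound).

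Klra8 was found in 36.0%, 25.0% and 28.6% of the thinned NK cells with vehicle and in 50%, 40.6% and 57.9% with ginkgetin, against at most 0.433% of B cells. Here too the groups did not overlap, with p = 0.1 in the exact permutation test and 0.5 after adjustment. At 2000 UMIs p was again 0.1, and without thinning the groups overlapped with p = 0.2 (exact permutation tests). Only 9 NK cells of ginkgetin replicate 1 were deep enough for 2000 UMIs, of which 7 had Klra8. Itgam was found in 0%, 25.0% and 0% of the cells with vehicle and in 14.3%, 9.38% and 28.1% with ginkgetin, and the groups overlapped (exact permutation p = 0.5). The shares of Eomes, Klrg1, Gzmb, Ifng, Ccl5, Ly6c2 and Mki67 had exact p between 0.3 and 1. The Gzmb share depended on the depth: at 2000 UMIs it was 80.0%, 68.4% and 71.4% with vehicle and 44.4%, 48.1% and 56.1% with ginkgetin, without overlap and with p = 0.1 in the exact permutation test, a difference of -23.7 points in place of -6.54 at 1000 UMIs. The 44.4% of ginkgetin replicate 1 was 4 of 9 cells. Mki67, a marker of dividing cells, was found in 1 of the 162 thinned cells, in ginkgetin replicate 2.

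The expression of genes in NK cells, summed per library, was then compared between the treatments with edgeR's quasi-likelihood test. Of 1053 genes with enough counts, 0 (0.0%) passed an adjusted p under 0.05 with a fold over 2, and 71 had an unadjusted p under 0.05, of which 38 were higher with ginkgetin. DESeq2 also called 0, with 38 at an unadjusted p under 0.05. The lowest adjusted p was 0.312. In CPM, 12.9% of the tested genes had all ginkgetin libraries below all vehicle libraries and 2.57% had them above. The genes below are those with the smallest p, given as values, and no change is claimed for any of them.

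The 2 smallest p-values belonged to Jun, a subunit of the AP-1 transcription factor, and Hspa1a, a stress-induced chaperone of the HSP70 family. Jun stood at 379.7, 338 and 368 CPM in the vehicle libraries and 115, 89.8 and 115 CPM in the ginkgetin libraries. The groups lay far apart, and the log2 difference was -1.62 ± 0.32 (SE) with an edgeR adjusted p of 0.312. Hspa1a stood at 496, 237 and 212 CPM with vehicle and 28.8, 79.8 and 23.1 CPM with ginkgetin, which rested on 1 to 8 UMIs per ginkgetin library. Its groups did not overlap either, and the log2 difference was -2.76 ± 0.57 with an adjusted p of 0.312. With the library set (replicate 3 against replicates 1 and 2) as a term in the fit, Hspa1a was called at -2.61 with an adjusted p of 0.0306.

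Genes of protein folding and turnover are given with their values. The constitutive chaperone Hspa8 stood at 2415, 2568 and 2492 CPM with vehicle and 1498, 678 and 1231 CPM with ginkgetin (log2 difference -1.02 ± 0.34). Its partner Dnaja1, which is not on the list of heat shock genes, stood at 749, 473 and 849.7 CPM and at 317, 219 and 254 CPM (-1.29 ± 0.36), and Ubb, which encodes polyubiquitin, at 2309.7, 2957 and 2931 CPM and at 1239, 1197 and 1135 CPM (-1.07 ± 0.30). In each of these 3 genes the groups did not overlap, and the adjusted p was between 0.551 and 0.685. The immediate-early genes Fos and Junb did not share this pattern: Fos stood at 84.4, 84.5 and 255 CPM with vehicle and 202, 249 and 158 CPM with ginkgetin, and Junb at 316, 1335 and 1728 CPM and at 1152, 748 and 1404 CPM. Of the other chaperones on the list, Hsp90aa1 stood at 802, 642 and 708 CPM with vehicle and 489.8, 169.5 and 292 CPM with ginkgetin (-1.13 ± 0.39, adjusted p = 0.685), and Dnajb1, whose groups overlapped, at 243, 152 and 184 CPM and 173, 109.7 and 69.2 CPM (-0.80 ± 0.44, adjusted p = 0.75). Hspa1b, a near-identical copy of Hspa1a, had too few counts to be tested and stood at 63.3, 270.3 and 679.7 CPM and 28.8, 39.9 and 38.5 CPM. Of the 17 genes on the list of immediate-early and heat shock genes 14 were tested, 0 were called, 9 were higher and 5 (Jun, Hspa1a, Hspa8, Hsp90aa1 and Dnajb1) lower, with a median log2 difference of 0.07 beside 0.04 over all genes. In CD8 T cells of the same libraries Hspa1a stood at 670.9, 846 and 309 CPM with vehicle and 40.8, 12.5 and 41.6 CPM with ginkgetin, and Jun at 179.8, 242 and 264 CPM and 63.7, 67.1 and 147 CPM, so both genes were apart there too.

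**Figure D2:**
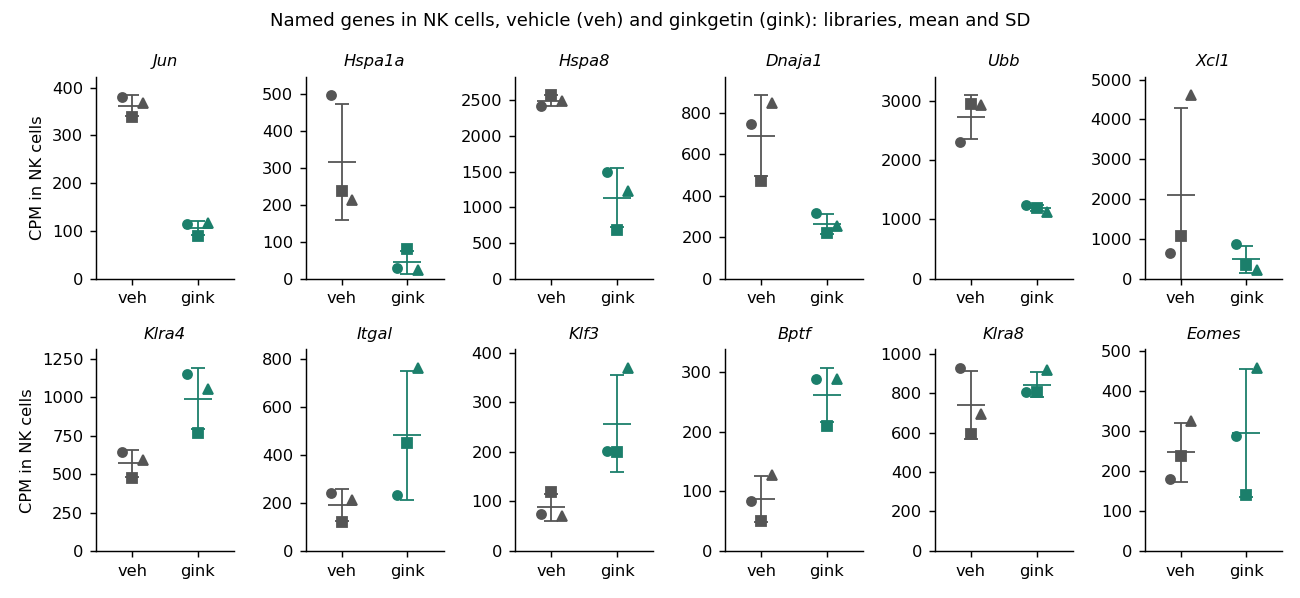
CPM of 12 genes in NK cells of the 3 vehicle (grey) and 3 ginkgetin (green) libraries (circle, square and triangle, replicates 1 to 3), with the mean and SD of each group on a linear axis from 0. Jun, Hspa1a, Hspa8, Dnaja1, Ubb, Klra4, Klf3 and Bptf do not overlap between the groups, Xcl1 and Itgal overlap, and Klra8 and Eomes show no separation; no gene passed the test.

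Higher with ginkgetin by the smallest p-values were Klf3, a transcriptional repressor that limits lymphocyte expansion and trafficking, and Bptf, a subunit of a chromatin remodelling complex. Klf3 stood at 73.8, 118 and 70.8 CPM with vehicle and 202, 199 and 369 CPM with ginkgetin, a log2 difference of 1.78 ± 0.42 with an adjusted p of 0.51. Bptf stood at 84.4, 50.7 and 127 CPM and at 288, 209 and 288 CPM, a difference of 1.68 ± 0.41 with the same adjusted p. Itgal, the alpha chain of the integrin LFA-1 by which NK cells bind their targets, stood at 243, 118 and 212 CPM and at 230.5, 449 and 762 CPM, and its groups overlapped (1.51 ± 0.46, adjusted p = 0.592).

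Among receptors, Klra4 (the activating receptor Ly49D) stood at 643, 473 and 595 CPM with vehicle and 1152, 768 and 1058 CPM with ginkgetin, without overlap (log2 difference 0.92 ± 0.32, adjusted p = 0.685). Of 6 activating receptors tested 4 were higher and 2 lower, and of 7 inhibitory or checkpoint receptors 4 were higher and 3 lower, with 0 called in both lists. Hcst, which encodes the adaptor DAP10 of the receptor NKG2D, stood at 580.1, 743 and 453 CPM with vehicle and 1239, 918 and 673 CPM with ginkgetin, and the groups overlapped. All 6 of the cytokine and chemokine genes tested had a negative log2 difference, with a median of -0.65, and 0 were called. The largest of these was Xcl1, a chemokine that attracts cross-presenting dendritic cells, at 654, 1081 and 4602 CPM with vehicle and 864, 349 and 227 CPM with ginkgetin. Vehicle replicate 3 was far above the other libraries, and the groups overlapped (-2.13 ± 0.74, adjusted p = 0.685). Ifng, interferon gamma, was likewise highest in vehicle replicate 3, at 935 CPM against 211 and 237 CPM in the other vehicle libraries and 144, 79.8 and 296 CPM with ginkgetin.

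Eomes and Klra8, which mark the lineage, had small differences beside their errors. Eomes stood at 179, 237 and 326 CPM with vehicle and 288, 139.6 and 458 CPM with ginkgetin (log2 difference 0.44 ± 0.45), and Klra8 at 928, 591 and 694 CPM and 807, 808 and 915 CPM (0.33 ± 0.31), both with an adjusted p of 0.85. The libraries of both groups overlapped in both genes, and without ginkgetin replicate 3 the Eomes difference was -0.19. On the list of mature NK genes 6 of 7 tested were higher with ginkgetin, with a median of 0.53, and on the list of immature NK genes 5 of 6 were lower, with a median of -0.16, and 0 were called on either. Of 9 transcription factors tested 7 were higher and 2 lower, and of 8 granule genes and death ligands 3 were higher and 5 lower, again with 0 called. None of the 18 interferon-stimulated genes had enough counts to be tested (0 tested). The 6 glycolysis genes tested were all lower, with a median of -0.42, and the 3 cell cycle genes tested were all higher, with a median of 0.34, with 0 called.

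NK cells were next set beside ILC1-like cells of the same libraries, which answers how far the gate separates these related cells in genes it did not use. Ginkgetin replicate 1 had only 3 ILC1-like cells and was left out, so 5 libraries were compared. Of 1222 genes tested, 40 (3.27%) were higher in NK cells and 32 (2.62%) lower at an edgeR adjusted p under 0.05 and a fold over 2. DESeq2 called 35 and 21. A gene could pass the filter on low counts through either gate alone, so counts over the members of a list that were tested lean toward the gate in which they are high. ILC1-like cells had more UMIs per cell than NK cells in all of those libraries, with medians between 3011 and 5911 against 2706.5 and 5335, and the part of depth in the result was not tested.

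Klra8 and Klra4 had the smallest p-values. Genes near 0 in ILC1-like cells, such as both of these, passed the filter on low counts through the NK cells. That favours a higher value in NK cells, so their values are a description. Klra8 had 491 UMIs in NK cells and 1 UMI in ILC1-like cells of the 5 libraries, a ratio of CPM of 834 with a 95% counting interval from 149 to 33007 (adjusted p = 4.54e-13). Klra4 stood between 473 and 1058 CPM in NK cells and at 0, 0, 28.9, 0 and 0 CPM in ILC1-like cells (log2 difference 5.93 ± 0.39, adjusted p = 1.18e-09). Klra7, the inhibitory receptor Ly49G, stood between 219.6 and 696 CPM in NK cells and at most at 19.3 CPM in ILC1-like cells (5.44 ± 0.40, adjusted p = 4.62e-09). Klra3 (Ly49C) and Klra9 (Ly49I) also rose, by 3.40 ± 0.38 and 2.11 ± 0.40 on the log2 scale. Klra9 was the least separated of them, since 2 of the 5 ILC1-like sums held 230.2 and 191 CPM.

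The Klra genes lie side by side, and the 9 looked up span chromosome 6 from 129898988 to 130386874 in the RefSeq annotation of GRCm38. Their sequences are closely alike, so counts of single members are uncertain where the counting could split reads between copies. Of all NK cells 59.3% had a UMI of Klra8, 53.1% of Klra7, 48.1% of Klra4, 44.4% of Klra9, 32.1% of Klra3, 6.79% of Klra1 and 3.09% of each of Klra5 and Klra6, and Klra10 was found in 0 of 162.

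UMIs of several Klra genes were found in single NK cells. Reads of 1 gene split between its copies would also give such cells, and this was not tested. In the vehicle libraries 88.0%, 60% and 78.6% of the NK cells had a UMI of at least 1 Klra gene and 72.0%, 40.0% and 71.4% had at least 2. In the ginkgetin libraries the shares were 92.9%, 87.5% and 96.5% for at least 1 and 78.6%, 75.0% and 84.2% for at least 2. The most found in 1 cell was 6 genes, in ginkgetin replicate 3. In ILC1-like cells the share with at least 1 was 7.69%, 11.1% and 9.23% with vehicle and 45.5% and 27.1% in ginkgetin replicates 2 and 3, and in CD8 T cells it was between 5.39% and 31.6%. The share with at least 2 was between 0% and 4.17% in ILC1-like cells and between 2.82% and 25.1% in CD8 T cells, counted in the same way. In the share with at least 1, NK cells were higher than CD8 T cells in 6 of 6 libraries, by 66.9 points ± 6.70 (SD), with p = 0.03125 in an exact sign-flip permutation test, the smallest that 6 libraries allow, and higher than ILC1-like cells in 5 of 5, by 62.0 points ± 15.9, with p = 0.0625, the smallest that 5 allow. Between the treatments the share of NK cells with at least 2 differed by 18.1 points without overlap, with p = 0.1 in an exact permutation test. The share with at least 1 differed by 16.8 points with p = 0.2 in the same exact test. These tests of Klra shares, between gates and between treatments, were added after the data had been seen. Their p-values are therefore not separate support for the pattern, and the cells were not thinned to a common depth.

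**Figure D3:**
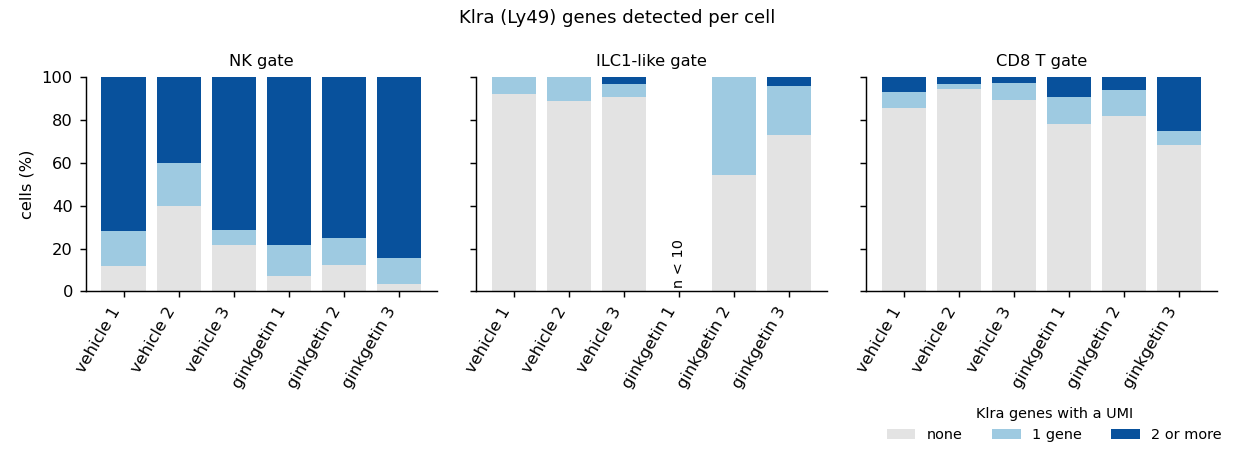
Share of cells with a UMI of 0, 1 or at least 2 of the 9 Klra genes in each library, for the NK gate, the ILC1-like gate and the CD8 T gate (stacked bars, % of cells; ginkgetin replicate 1 had under 10 ILC1-like cells and is not drawn). Cells with at least 2 make up between 40.0% and 84.2% of NK cells and at most 4.17% of ILC1-like cells.

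Of 10 transcription factors tested, 4 were called higher in NK cells and 0 lower, and 7 had a positive and 3 a negative log2 difference. Only 10 of the 20 members were tested, and some could pass the filter through the NK cells alone, so the count is not read as a result. Eomes stood between 139.6 and 458 CPM in NK cells and between 0 and 25.6 CPM in ILC1-like cells, without overlap (5.58 ± 0.38, adjusted p = 1.55e-09). Zeb2, which drives the last steps of NK maturation, rose by 3.74 ± 0.30, Klf2, which controls exit from tissue into blood, by 3.35 ± 0.30, and Irf8 by 2.76 ± 0.21. Tbx21, which both lineages use, differed by 0.87 ± 0.25 and did not reach a fold of 2 (adjusted p = 0.0195).

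Among genes of homing and residency, Itga4, an integrin chain used to leave the blood, rose by 1.99 ± 0.21. Of the 12 ILC1 and residency genes on the list 3 were tested and only 1 had enough counts in NK cells alone, so the others passed the filter through the ILC1-like cells, which favours a lower value in NK cells, and no count is read from them. Their log2 differences are given as values for Il7r, the receptor of interleukin 7 (-3.87 ± 0.43), Tmem176b, a membrane protein of type 3 and type 1 lymphoid cells and myeloid cells (-3.14 ± 0.28), and Rgs1, which damps chemokine receptor signals (-2.45 ± 0.18). Rgs1 stood between 189.8 and 338 CPM in NK cells and between 922 and 1884 CPM in ILC1-like cells, without overlap. The surface protein Cd7 was called lower (-2.24 ± 0.17), and S100a4 had a difference of -3.02 ± 0.25 but too few counts in NK cells alone.

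**Figure D4:**
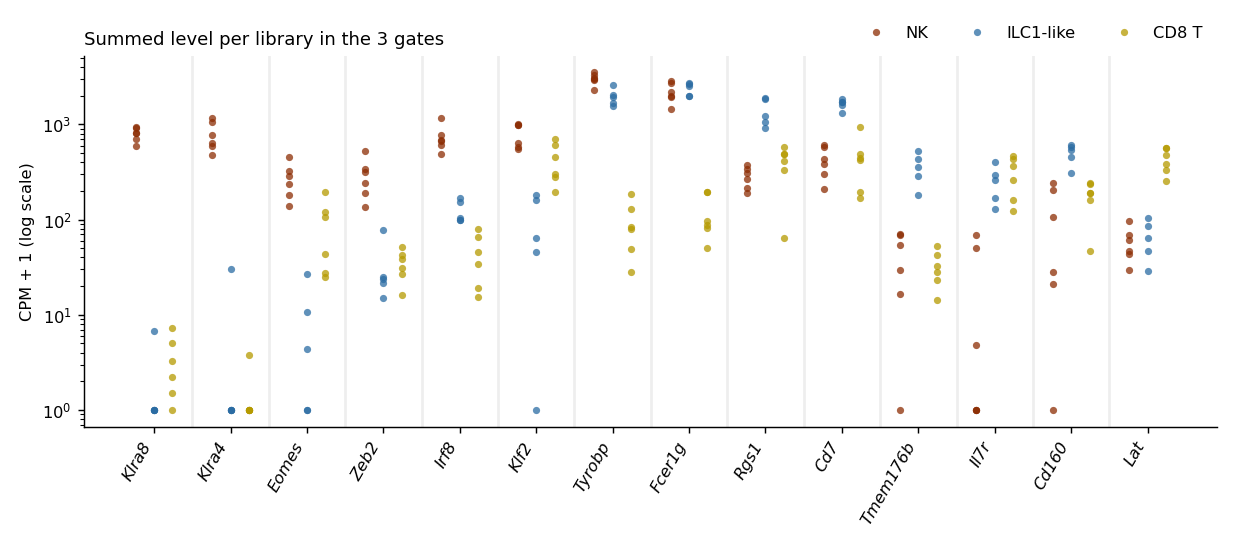
CPM + 1 on a log axis of 14 genes in the NK (brown), ILC1-like (blue) and CD8 T (yellow) cells, 1 point per library (5 libraries for ILC1-like cells). Klra8, Klra4, Eomes, Zeb2 and Irf8 lie above the ILC1-like points in NK cells, Rgs1, Cd7, Tmem176b and Cd160 below them, and Tyrobp and Fcer1g lie above the CD8 T points.

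On the list of immature NK genes Ltb, Xcl1, Cd7 and Thy1 were called lower in NK cells and Ctla2a higher. Il7r, with 10 UMIs over all NK cells, is left out here because it passed the filter through the ILC1-like cells. On the list of mature NK genes Zeb2, Spn (CD43) and Ly6c2 were called higher and 0 lower, but only 4 of the 10 members were tested. Members low in ILC1-like cells could pass the filter only through the NK cells, so no count is read from the list. The secreted products were split. Ifng rose by 1.51 ± 0.31 in NK cells (adjusted p = 0.00155), while the chemokine Xcl1 fell by 1.90 ± 0.34 on the log2 scale (adjusted p = 4.92e-04). Xcl1 stood between 1867 and 4492 CPM in ILC1-like cells and between 227 and 1081 CPM in 4 of the 5 NK sums, and only the NK cells of vehicle replicate 3, at 4602 CPM, were above them. Ltb, a membrane-bound cytokine that shapes lymphoid tissue, fell by 2.13 ± 0.18.

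Among the other lists, of 7 activating receptors tested Klra8 and Klra4 were called higher, and 4 had a negative difference. Cd160 was among these (-2.49 ± 0.32), but it had too few counts in NK cells alone and passed the filter through the ILC1-like cells, so the value is a description. Of 6 adaptors and kinases tested Fyn and Sh2d1a, the adaptor SAP of the SLAM receptors, rose. Of 6 cytokine receptors tested both chains of the interleukin 18 receptor rose, Il18r1 by 1.09 ± 0.22 and Il18rap by 1.03 ± 0.19. Il7r, given above as a value, was called lower. Of 9 granule genes and death ligands tested Serpinb9, an inhibitor that protects killer cells from granzyme B, rose by 1.06 ± 0.21. Gzmc, which passed the filter through the ILC1-like cells, had UMIs in only 1 of the 6 NK sums, vehicle replicate 3, at 722 CPM. Of 13 immediate-early and heat shock genes and 7 glycolysis genes tested 0 were called. Without vehicle replicate 2 the count of calls was 117 in place of 72 and without ginkgetin replicate 2 it was 111; without the pairing of gates by library it was 37.

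CD8 T cells, killer lymphocytes of the adaptive arm, served as the second comparison. They were gated by at least 2 UMIs of the Cd3 genes, at least 1 of Cd8a and Cd8b1 and 0 of Ncr1 and Klrb1c, which gave 2324 cells in the 6 libraries. Of 5410 genes tested, 174 (3.22%) were higher in NK cells and 243 (4.49%) lower. DESeq2 called 164 and 154. Here too a gene could pass the filter through either gate alone, and the CD8 T sums were larger. Genes near 0 in CD8 T cells, such as Klra4, Klra8 and Cma1, passed through the NK cells and are given as a description. Of the single genes named as lower in this comparison only Ltb had enough counts in NK cells alone, so the others are given as a description. Counts of calls in either direction are not read as results about a list.

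Several adaptors of NK receptors were called higher. Tyrobp, the adaptor DAP12 of Ly49D and Ly49H, stood between 2304 and 3512 CPM in NK cells and between 27.1 and 184 CPM in CD8 T cells (4.91 ± 0.20, adjusted p = 2.78e-25). Fcer1g, the shared gamma chain of Fc receptors and natural cytotoxicity receptors, stood between 1441 and 2869 CPM and between 48.8 and 194 CPM (4.01 ± 0.18, adjusted p = 1.14e-23). Both genes were apart in all 6 libraries. The kinase Syk, which these adaptors recruit, rose by 3.32 ± 0.37, and Lat, the scaffold of T cell receptor signalling, had a log2 difference of -3.06 ± 0.21. Of 14 adaptors and kinases tested 5 were called higher and 1 lower, and 7 had a positive and 7 a negative difference, with a median of -0.14 beside -0.10 over all genes.

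Of 12 activating receptors tested 7 were called higher and 2 lower, and 8 had a positive and 4 a negative difference. The receptors that rose included Klrk1 (NKG2D, 2.15 ± 0.16), Klrc2 (NKG2C, 2.72 ± 0.19), Klre1 (2.86 ± 0.15) and Fcgr3, the receptor of antibody-coated targets (4.33 ± 0.44). Klra4 had UMIs in only 1 of the 6 CD8 T sums, at 2.77 CPM, and Klra8 was at most at 6.23 CPM there. Klri2, which pairs with Klre1 in an activating receptor although it stood on the list of inhibitory and checkpoint receptors, rose by 7.18 ± 0.31. Of the 10 genes tested on that list, Klri2 included, 7 were called higher and 2 lower. Cma1, a mast cell protease that mature NK cells also transcribe, had 161 UMIs in NK cells and 1 in CD8 T cells, a ratio of CPM of 2664 with a 95% counting interval from 471 to 105881.

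All 10 genes of the mature NK list were tested, of which 6 were called higher and 0 lower, and 9 had a positive and 1 a negative difference. Itgam rose by 5.37 ± 0.38, S1pr5, which guides NK cells out of tissue, by 3.97 ± 0.32, and Zeb2 by 2.81 ± 0.22. Of 17 transcription factors tested 4 were called higher and 3 lower, and 11 had a positive and 6 a negative difference. Those called higher were Eomes (1.60 ± 0.26), Tbx21 (1.79 ± 0.25), Zeb2 and Irf8 (3.93 ± 0.24). Of 8 cytokines and chemokines tested 4 rose, namely Ccl3 (1.95 ± 0.27), Ccl4 (1.44 ± 0.21), Xcl1 (1.57 ± 0.26) and Ifng (1.07 ± 0.20), and Ltb fell.

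Gzma and Prf1 were left out as genes of the gate. Of 17 other granule genes and death ligands tested, Serpinb9 and Serpinb6b were called higher and 2 genes were called lower. Nkg7 stood between 2523 and 5294 CPM in NK cells and between 879 and 3231 CPM in CD8 T cells and differed by 0.67 ± 0.12 (adjusted p = 2.32e-05), under a fold of 2. Gzmk, which passed the filter through the CD8 T cells, had 1730 UMIs in CD8 T cells and 2 in NK cells, a ratio of CPM of 52.3 with a 95% counting interval from 14.4 to 432.

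Of 12 cell cycle genes 3 had enough counts in NK cells alone and 8 were tested against CD8 T cells, so no count of calls is read from them. Mki67 had UMIs in the NK cells of only 1 library, at 39.9 CPM, and stood between 22.1 and 142 CPM in CD8 T cells (-3.37 ± 0.61). Of the interferon-stimulated genes 0 of 18 had enough counts in NK cells alone, so those that were tested passed through the CD8 T cells, which favours a lower value in NK cells, and no count of calls is read from them. Ifi27l2a and Isg15 had 16 and 14 UMIs over all NK cells. Of 79 ribosomal protein genes tested 78 were negative, with a median of -0.77 beside -0.10 over all genes, and no set test was run. The fold of 2 was passed by 9 of the 79, beside 4.49% called lower over all genes, and 78 had enough counts in NK cells alone. With cells of 250 to 5000 UMIs (5 libraries, 1819 genes tested) the calls numbered 86 higher and 70 lower. With cells thinned to 1000 UMIs (4 libraries, 569 genes tested) they numbered 34 and 13.

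Finally, the ginkgetin difference in NK cells was tested against that in CD8 T cells of the same libraries, by a term for gate and treatment together with each library as a block. Of 6853 genes tested, 15 (0.219%) passed an adjusted p under 0.05, 10 of them with a higher ginkgetin effect in NK cells. DESeq2 called 1, and the count was 34 without ginkgetin replicate 1 and 6 without ginkgetin replicate 3, and 11 of the 15 calls were lost without ginkgetin replicate 3.

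Eomes, the lineage factor of NK cells, was apart between the treatments in CD8 T cells. It stood at 106, 194 and 120.3 CPM in CD8 T cells with vehicle and 24, 26.3 and 42.3 CPM with ginkgetin, without overlap, whereas the NK values given above overlapped. The difference of the effects was 2.31 ± 0.39 on the log2 scale (adjusted p = 3.17e-06, and 0.11 without ginkgetin replicate 3). The transcription factor Maf had opposite signs in the 2 gates. It stood at 31.6, 16.9 and 14.2 CPM with vehicle and 115, 59.8 and 119 CPM with ginkgetin in NK cells, and at 155, 98.1 and 112 CPM and 65.2, 69.2 and 44.6 CPM in CD8 T cells (3.31 ± 0.67, adjusted p = 4.86e-04). Neither pair of groups overlapped, and the NK sums held 1 to 31 UMIs each.

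Klra7 and Cd160 had the other sign. Klra7 overlapped between the treatments in NK cells and stood at 20.7, 4.05 and 22.7 CPM with vehicle and 45.9, 38.7 and 129 CPM with ginkgetin in CD8 T cells, where it did not (-2.18 ± 0.39, adjusted p = 2.07e-05). Cd160, in contrast, was apart in the NK cells themselves, at 105, 203 and 241 CPM with vehicle and 0, 19.9 and 26.9 CPM with ginkgetin, and overlapped in CD8 T cells (-2.61 ± 0.55, adjusted p = 0.00137). The NK sums of the ginkgetin libraries held 0, 2 and 7 UMIs of it, and in the comparison of the treatments within NK cells Cd160 had too few counts to be tested.

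**Figure D5:**
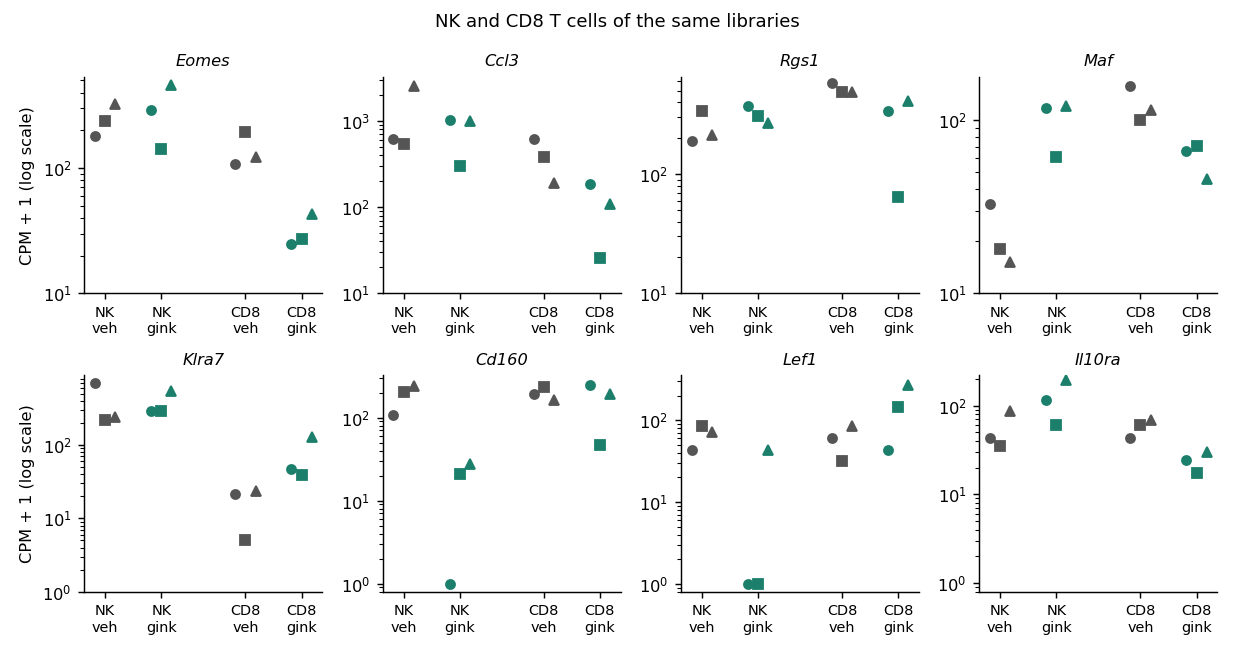
CPM + 1 on log axes of 8 genes in NK and CD8 T cells of the vehicle (grey) and ginkgetin (green) libraries (circle, square and triangle, replicates 1 to 3). Eomes, Ccl3, Rgs1, Maf, Klra7 and Il10ra separate the treatments in CD8 T cells, Maf and Cd160 do so in NK cells, and in the other 6 genes the NK groups overlap.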

How the data were processed

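Liver non-parenchymal cells of the 6 libraries had been profiled by the authors on the 10X Genomics Chromium system according to the study's methods, whereas the labels name a bulk RNA extraction and a SMARTER mRNA-Seq kit. The deposited tables hold whole numbers per barcode and were read as UMI counts. If they are read counts, every value given in UMIs counts reads. The authors deposited whole-number counts per gene symbol and barcode, with no normalization, and every barcode had at least 501 genes. The submitters' processing notes name GRCm38 (mm10), and the aligner is not given in the sources used here. Cells were kept here with under 5000 genes and under 5% mitochondrial UMIs, and the study's stated range of 250 to 5000 UMIs was an alternative. Doublets were not called. Total counts per library were between 13128697 and 61796882 UMIs, and intervals cover counting error only.

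Counts were summed per library and gate, for libraries with 10 or more cells, and tested with edgeR 4.0.16 (TMM, filterByExpr, quasi-likelihood, Benjamini-Hochberg) in R 4.3.3, with the library as a block where gates were compared. DESeq2 1.42.0 was an alternative. Shares were compared by exact permutation over libraries in Python 3.11.15. A log2 difference is NK cells minus the other gate, or ginkgetin minus vehicle, and is followed by its SE. The labels do not say that libraries were separate mice, so p-values measure the spread between these libraries, which may be technical. The scripts were tested on simulated data.

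The members and gene lists were chosen with earlier results of these data known. Genes were named as up to 4 members of each list with the smallest p between treatments, the defining members, and the 10 smallest p per direction with a mean of 50 CPM or more. Fos, Junb, Cd160, Gzmk and other list members given as examples were named after their values were seen. Symbols with UMIs in only 1 library set were left out after the tables were seen. Some results are not reported here. Positions are from RefSeq, by symbol.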

Additional observations from a re-analysis of the deposited data

Results flagged for a closer look

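The ginkgetin effect in NK cells differed from that in CD8 T cells for 15 genes by the interaction term in edgeR (adjusted p under 0.05). Eomes (2.31), Maf (3.31), Klra7 (-2.18) and Cd160 (-2.61) are given above with their values by library, each as the log2 effect in NK cells minus that in CD8 T cells. The other differences were 0.86 for the chemokine Ccl5, 1.56 for the chemokine Ccl3, 1.54 for Rgs1, 2.48 for the interleukin 10 receptor chain Il10ra, -3.12 for the transcription factor Lef1 and -5.84 for the protease inhibitor Slpi. Il10ra stood at 42.2, 33.8 and 85.0 CPM with vehicle and 115, 59.8 and 192 CPM with ginkgetin in NK cells, which overlapped, and at 42.6, 59.7 and 68.1 CPM and 23.4, 16.6 and 28.7 CPM in CD8 T cells, which did not. Slpi was at 0 in 3 of the 6 NK sums.

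The haemoglobin genes Hbb-bs (12.58), Hbb-bt (10.67), Hba-a1 (11.13) and Hba-a2 (11.28) were at 0 UMIs in all vehicle NK sums, so these fitted values depend on the prior count and give no size. Hbb-bs stood at 67.0, 1153 and 1233 CPM with vehicle and 128, 24.2 and 37.8 CPM with ginkgetin in CD8 T cells. These genes are red cell products and near-identical pairs, whose single counts are uncertain.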

How the results depend on the processing

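Between the treatments 0 genes were called in NK cells, against 13 without a filter on genes, 1 with cells of 250 to 5000 UMIs (5 libraries in place of 6), 1 with the library set as a term, 1 without the condition on Gzma and Prf1, and 5 with the replicate number as a block. Same-numbered libraries correlated at 0.161, 0.088 and 0.590 in their deviations from the group means, so the numbers were not taken to pair the samples, and of the libraries only those of replicate 3 correlated best with their own number. With the block in sign-flip permutation tests the NK shares had exact p of 1 (kept cells), 0.75 (lymphoid cells) and 0.25 (NK and ILC1-like cells), where 0.25 is the smallest possible. Against ILC1-like cells the 72 calls became 274 without the filter, 37 without the library block, and 52 to 117 with 1 library left out. Without cells holding other-lineage UMIs they became 132, but that fit had 2 libraries and 2017 genes in place of 5 and 1222. Against CD8 T cells the 417 calls became 861 without the filter, 249 in replicates 1 and 2 and 262 without the block. Settings that dropped cells also lost libraries and genes, from 6 libraries and 5410 genes. The calls were 156 with cells of 250 to 5000 UMIs (5 libraries, 1819 genes) and 47 after thinning (4 libraries, 569 genes). They were 220 without cells holding other-lineage UMIs (4 libraries, 2241 genes). The 15 differences in effect became 1 with DESeq2, 4 in replicates 1 and 2, and 6 to 34 with 1 library left out. They became 8 with cells of 250 to 5000 UMIs (5 libraries, 3086 genes) and 0 after thinning (4 libraries, 963 genes), in place of 6 libraries and 6853 genes. Directions turned for the NK share of kept cells (-0.076 points in replicates 1 and 2, and -0.019 to 0.562 with 1 library left out), of lymphoid cells (-0.268 in replicates 1 and 2) and of NK and ILC1-like cells (-1.02 after thinning), for the Itgam share (-0.670 in replicates 1 and 2), the Klrg1 share (0.540 without thinning, 1.06 at 2000 UMIs, -5.82 to 0.613 with 1 library left out), and Eomes between treatments (-0.19 to 0.81 with 1 library left out). The causes were not tested. Leaving out cells with other-lineage UMIs left too few cells between treatments and for the difference in effect, and thinning left too few ILC1-like cells. With 14 NK cells in 2 libraries, 1 UMI was worth up to 28.8 CPM, which limits low genes.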
